A study of Mus musculus with 12 samples.

Results

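Mural and fibroblast genes were followed in cultured oligodendrocyte precursor cells (OPCs), the dividing cells that give rise to oligodendrocytes. They were 10 of the 45563 gene symbols used, taken by name from both tables of FPKM. The contractile genes were *Acta2*, *Tagln*, *Myl9* and *Cnn1*, the mural surface and matrix genes *Aoc3*, *Rgs5* and *Vtn*, and the fibroblast proteoglycans *Dcn* and *Lum*, with *Apoa1* as a separate gene. They were selected on earlier results of these same libraries, in which *Aoc3* and *Apoa1* had large differences between genotypes, so their own differences between genotypes are given as a description and support nothing. OPCs came from cortices of WT C57BL/6 pups (C57BL/6J per the methods) or of germline TNFR2-/- pups, aged 2 to 5 days per the labels, and were bound by beads against PDGFRα and grown for 3 days with PDGF-AA and FGF2. Cultures were then given PBS (non-stimulated, NS) or TNF, IFNγ and IL1β at 25 ng/mL each (stimulated, St) for 3 h. The 4 groups (WT NS, WT St, TNFR2-/- NS and TNFR2-/- St) had 3 libraries each, from WT cultures 2, 3 and 4 and TNFR2-/- cultures 2, 4 and 5, with NS and St libraries sharing a number. The study describes its experiments as independent, and the labels do not say whether cultures came from separate litters, so p-values measure the spread between these cultures, part of which may be technical.

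Mural cells, the smooth muscle cells and pericytes around blood vessels, and the fibroblasts of the meninges and perivascular spaces share the vessel wall with endothelial cells. Smooth muscle cells contract with α-smooth muscle actin and its partners, genes that serum response factor (SRF) and myocardin-related factors turn on when actin filaments assemble. Pericytes are recognized by *Rgs5*, *Vtn*, *Kcnj8* and *Abcc9*, and fibroblasts by *Dcn*, *Lum* and fibrillar collagens. PDGFRα, the surface protein used for the isolation, is carried by OPCs and also by fibroblasts of the nervous system.

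Library totals were 26886878 to 30335265 read pairs, so that a count of 0 allows up to 3 read pairs, or 0.0989 to 0.112 RPM (read pairs scaled by the library total, covering counting error only). *Tnfrsf1b*, which encodes TNFR2, went against the labels. It had 12 to 24 read pairs in WT NS and 61 to 145 in WT St libraries, against 213 to 346 in TNFR2-/- NS and 282 to 356 in TNFR2-/- St libraries, so the last 2 groups are the libraries labelled TNFR2-/-. Counts per gene give no position within it, and the part of any deleted exon in these counts was not tested. *Pdgfra* had 8000 to 20680, *Olig2* 10216 to 29178, *Sox10* 5188 to 11166 and *Cspg4* 6579 to 13461 read pairs per library. The 14 OPC genes of a fixed list each had over 100 read pairs in every library and summed to 8470 to 11700 RPM. Microglia genes summed to 15.2 to 21.9 RPM, and *Ptprc*, *Aif1* and *Tyrobp* had at most 2 read pairs in any library.

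All 4 contractile genes were abundant in every culture, whereas the other members had at most 67 read pairs in any library. By length of annotated exon, *Acta2* averaged 180 RPM per kb over the 12 libraries, *Tagln* 117, *Myl9* 61.5 and *Cnn1* 4.33. Of 27021 genes with reads, 99.3% lay below *Acta2* and 71.4% below *Cnn1* on this scale. The remaining levels were 0.510 for *Apoa1*, 0.211 for *Aoc3*, 0.156 for both *Lum* and *Rgs5*, 0.0589 for *Vtn* and 0.0176 for *Dcn*. The order held library by library down to *Aoc3*, with 1 exception between *Acta2* and *Tagln* (11 of 12 libraries). *Aoc3*, *Lum* and *Rgs5* changed places, since *Aoc3* was above *Lum* in 5 of 12 libraries and *Lum* above *Rgs5* in 6 of 12.

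The deposited FPKM gave a different order, because each gene had been divided by a number of bases that did not follow its exons. This divisor was 107 for *Aoc3*, whose annotated exons cover 4621 bases, 105 for *Apoa1* (1236 bases), 128 for *Tagln* (1988 bases) and 127 for *Cnn1* (2736 bases). It was 1364 for *Acta2* (2196 bases) and 5669 for *Rgs5* (4546 bases). On average, 1 read pair was therefore worth 0.314 FPKM for *Aoc3* and 0.00593 FPKM for *Rgs5*. *Aoc3*, *Apoa1* and *Lum* (divisor 333, exons of 2448 bases) passed the mean of 1 FPKM required of a call with few reads. Across 16009 genes the divisor was within 2-fold of the exon length for 26.4%. Comparisons of a gene with itself do not depend on its divisor, except through the constant of 0.5 FPKM added before taking log2 and through the thresholds on FPKM.

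**Figure D1:**
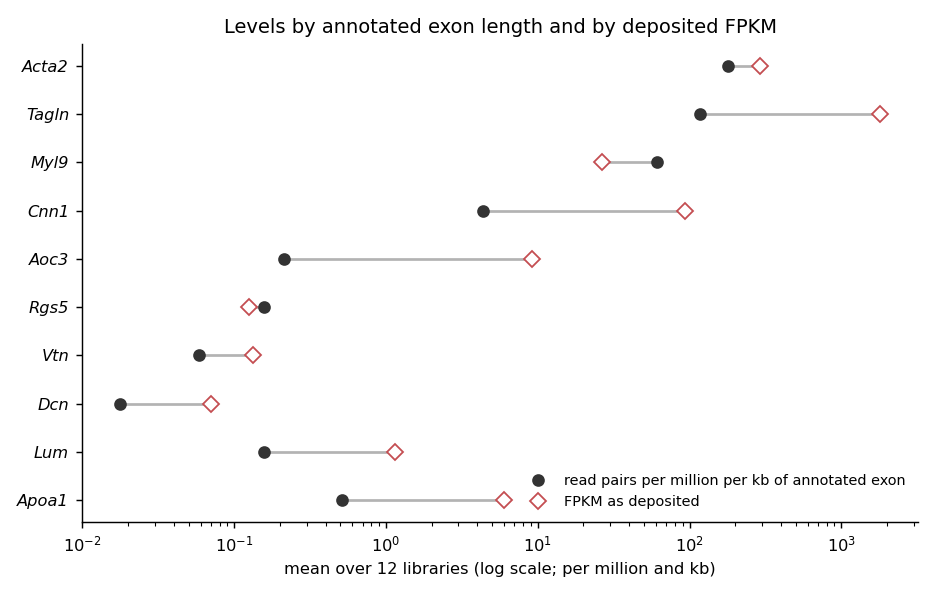
Mean level of each of the 10 genes over the 12 libraries on a log axis, as RPM per kilobase of annotated exon (filled circles) and as FPKM in the deposited tables (open diamonds). Acta2 (180), Tagln (117) and Myl9 (61.5) led by exon length, whereas Aoc3 (0.211) and Apoa1 (0.510) appeared at 9.12 and 6.00 FPKM.

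The upstream sequences of *Myl9* and *Cnn1* are shown because the contractile genes varied together over the cultures, as described next. RefSeq promoter windows (GRCm38.p6, from 250 bases before to 50 bases after the start of transcription) were matched for 6 of the 10 genes. Capitals mark a CArG box, the binding motif of SRF, searched on both strands and only as CC, 6 letters A or T, and GG. The stretch for *Myl9* lies at chr2:156775214-156775419 and that for *Cnn1* at chr9:22099003-22099215, both on the plus strand and both ending before the first annotated exon.
Myl9: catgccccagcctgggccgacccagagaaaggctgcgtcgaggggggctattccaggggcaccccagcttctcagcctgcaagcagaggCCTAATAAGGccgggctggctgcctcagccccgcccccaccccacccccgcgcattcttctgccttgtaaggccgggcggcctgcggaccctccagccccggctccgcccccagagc
Cnn1: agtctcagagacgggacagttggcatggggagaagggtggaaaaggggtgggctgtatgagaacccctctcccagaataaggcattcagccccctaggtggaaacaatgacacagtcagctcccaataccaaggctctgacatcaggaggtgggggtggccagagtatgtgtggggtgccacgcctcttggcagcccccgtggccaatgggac
The *Myl9* window held 1 CArG box and the windows of *Cnn1* and *Acta2* held none. Of the *Acta2* window only the first 33 bases lie before its first annotated exon, so little of its upstream sequence was searched. Of 32817 RefSeq promoter windows of this length 1.63% held the motif. So did 8 of the 12 genes matched in a fixed list of SRF and myocardin-related genes. In the smooth muscle list, it was found in 1 of 19 matched genes (*Cnn2*), and in the OPC list in 2 of 9. A match is a description of the letters and no evidence of binding, and its absence says only that the letters were not in this window.

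*Acta2* (ENSMUSG00000035783, chromosome 19, 34241090 to 34255590) encodes α-smooth muscle actin. Its FPKM were 321, 177 and 623 in WT NS cultures 2, 3 and 4 and 379, 229 and 568 in the same cultures after stimulation. In the libraries labelled TNFR2-/-, cultures 2, 4 and 5, they were 389, 185 and 73.3 without and 337, 150 and 51.3 with stimulation. WT culture 4 was the highest and TNFR2-/- culture 5 the lowest in both conditions, and the genotypes overlapped.

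*Tagln* (ENSMUSG00000032085, chromosome 9, 45929619 to 45936058) encodes transgelin, an actin-bundling protein. It had 2183, 1224 and 3715 FPKM in WT NS and 2378, 1506 and 3334 in WT St cultures, in the order above. The libraries labelled TNFR2-/- had 2088, 1338 and 762 FPKM in NS and 1756, 946 and 485 in St cultures. Cultures took the same order as for *Acta2*. An annotated antisense RNA covers 62.4% of the *Tagln* exons on the other strand, and whether counting used strand is not given in the sources used here.

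The regulatory myosin light chain gene *Myl9* (ENSMUSG00000067818, chromosome 2, 156775420 to 156781658) had 34.8, 17.2 and 50.3 FPKM in WT NS and 35.9, 19.7 and 42.6 in WT St cultures. With the TNFR2-/- label it had 34.1, 21.1 and 12.1 FPKM in NS and 26.5, 14.7 and 6.39 in St cultures. *Cnn1* (ENSMUSG00000001349, chromosome 9, 22099216 to 22109630) encodes calponin 1, an inhibitor of the actomyosin ATPase. Its values were 112, 59.2 and 182 FPKM in WT NS, 104, 54.0 and 142 in WT St, 192, 60.1 and 38.7 in TNFR2-/- NS and 97.8, 44.3 and 32.1 in TNFR2-/- St cultures. The highest *Cnn1* value was that of TNFR2-/- NS culture 2.

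**Figure D2:**
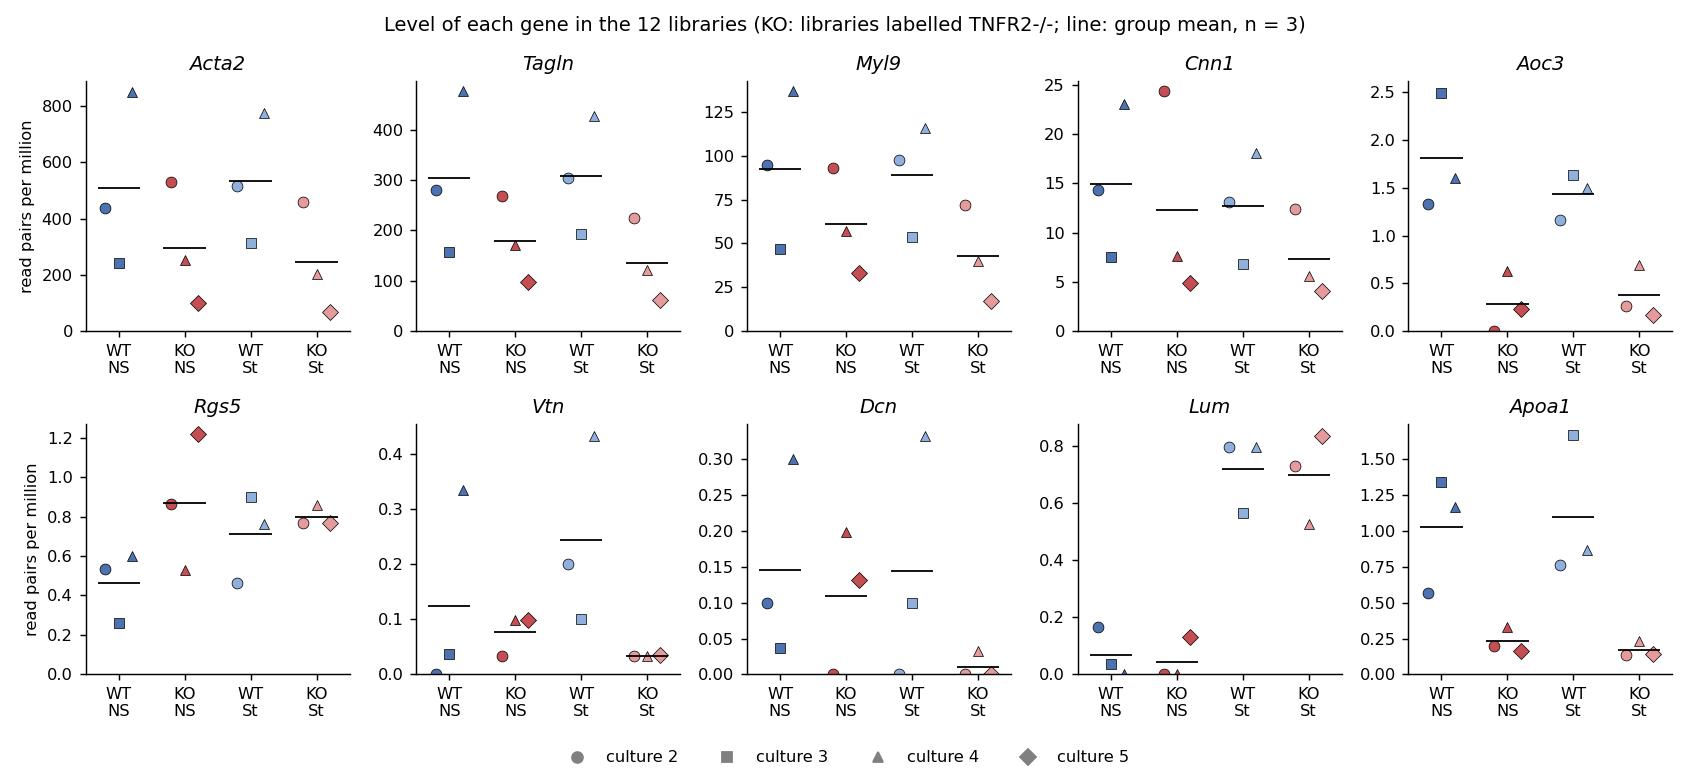
Level in RPM for each of the 10 genes (vertical axes, starting at 0) in the 4 groups, with a point per library, its shape giving the culture number, and a line at the mean of 3. KO stands for the libraries labelled TNFR2-/-. Contractile genes overlapped between all groups, Aoc3 and Apoa1 were lower in both KO groups, and Lum was higher in both St groups.

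Each of the 4 contractile genes ranked its cultures identically in NS and St, as WT culture 4 above 2 above 3 and TNFR2-/- culture 2 above 4 above 5. This order in all 4 groups was found in 79 of 13554 genes averaging 1 FPKM or more (0.583%). The order was taken from the members themselves, so their presence among the 79 is no finding. Of the other 75 genes, 11 were in a fixed list, among them the actin gene *Actb*, the filamin gene *Flna*, the myosin light chain gene *Myl6*, the calponin gene *Cnn2*, the tropomyosin genes *Tpm2* and *Tpm4*, and *Zyx* and *Tgfb1i1* of focal adhesions. Pairwise correlations of log2 values over the 12 libraries ranged from 0.92 to 0.99 among the contractile genes, which share libraries and cultures. The genes most like their mean profile among 13547 candidates were *Myadm* (r = 0.980), *Actr3* (0.968), *Cnn2* (0.966), *Tpm2* (0.966) and *Nup62cl* (0.957).

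Among the 16 SRF and myocardin-related genes with a mean of at least 100 read pairs, 10 were highest in WT culture 4 and 6 in TNFR2-/- culture 2, averaged over NS and St. *Tgfb1i1*, for example, had 570, 332 and 676 read pairs in WT NS and 797, 575 and 307 in TNFR2-/- NS cultures. Of the 12 smooth muscle genes at that level, 5 were highest in WT culture 4 and 4 in TNFR2-/- culture 2. WT cultures 2 and 3 and TNFR2-/- culture 5 were highest for 1 each. The share over all genes was not computed for such counts. Of the 17 fibroblast genes at that level 7 were highest in WT culture 2 and 6 in WT culture 4. *Col1a1*, the α1 chain of type I collagen, had 629, 281 and 458 read pairs in WT NS and 920, 268 and 370 in WT St cultures, with 81 to 231 in the libraries labelled TNFR2-/-. *Col1a2* and *Col6a2* were also highest in WT culture 2, where they had 234 and 304 read pairs after stimulation. *Col5a2*, the most abundant collagen gene of the list, was highest in WT culture 4, with 2492, 998 and 3175 read pairs in WT NS cultures.

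Astrocyte genes took another order, with 8 of 11 at this level highest in TNFR2-/- culture 5, where contractile genes were lowest. This was not particular to astrocyte genes. The same culture was highest for 6 of 14 OPC genes, 6 of 11 apolipoprotein and lipoprotein genes and 4 of 9 mature oligodendrocyte genes. The share over all genes was not computed. The astrocyte list of 12 summed to 2170 to 2510 RPM in WT NS, 2040 to 2110 in WT St, 3100 to 4850 in TNFR2-/- NS and 3090 to 4720 in TNFR2-/- St libraries. None of its genes was at 0 in any library. *Gfap*, an intermediate filament gene of astrocytes, had 10491 and 10010 read pairs in NS and St libraries of TNFR2-/- culture 5, against 251 to 1926 elsewhere. The part of these cells in the contractile levels was not tested. In bulk RNA, fewer cells of a type and less RNA per cell cannot be told apart.

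**Figure D3:**
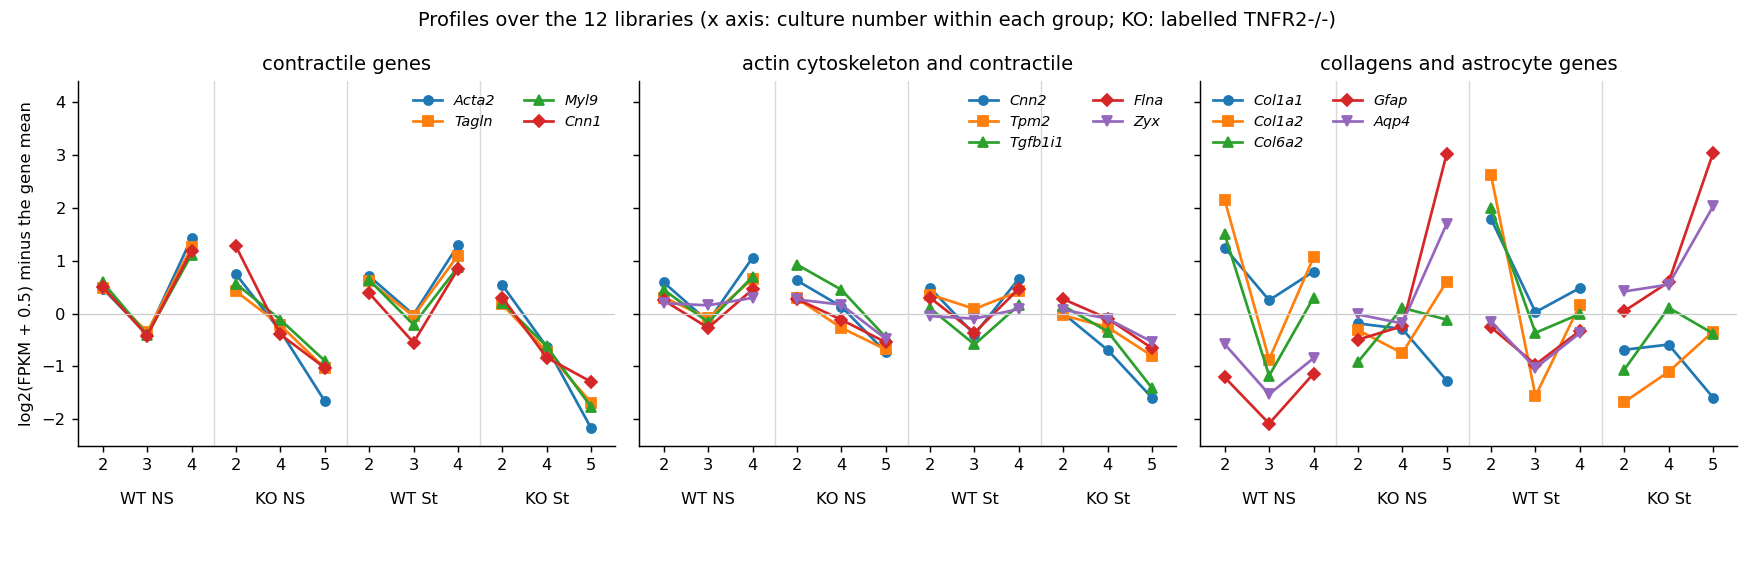
Log2(FPKM + 0.5) minus the mean of each gene over 12 libraries (vertical axis) for contractile members, 5 actin-related genes and 5 collagen or astrocyte genes, by culture number within each group (KO: labelled TNFR2-/-). The first 2 panels share their order of cultures. The 5 actin-related genes are among the 79 that have this order, so the match is no finding. The collagens shown peak in WT culture 2 and Gfap and Aqp4 in KO culture 5.

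Several defining markers of mural cells were scarce, while genes of fibrillar collagens were present in every library, and mural and fibroblast is used here as a name for the genes. Myosin heavy chain *Myh11* of smooth muscle had 2 to 16 read pairs per library, desmin (*Des*) 0 to 10 and the coactivator gene *Myocd* 0 to 6. Of pericyte genes, *Abcc9* had at most 3 and *Higd1b* at most 3, *Kcnj8* 0 to 3 in NS and 11 to 36 in St libraries and *Pdgfrb* 12 to 108, and the transporter gene *Slc6a13* of meningeal fibroblasts had at most 2. Across lists, 5 of 23 smooth muscle, 6 of 22 pericyte, 3 of 34 fibroblast and 8 of 23 endothelial genes never exceeded 10 read pairs. The endothelial genes *Cdh5* and *Tie1* had at most 5 and 1 read pairs, whereas *Flt1* had 615 to 1697 and *Kdr* 63 to 224. The endothelial list summed to 191 to 312 RPM. Other genes of these lists were abundant, such as the tropomyosin gene *Tpm1* (5941 to 20507 read pairs), the Notch receptor gene *Notch3* (793 to 1904) and fibronectin, *Fn1* (2970 to 9179). *Col1a1* had 81 to 920, *Col1a2* 10 to 234, *Col3a1* 11 to 118, *Col5a1* 1092 to 2274 and *Col5a2* 998 to 3175 read pairs.

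*Rgs5* (ENSMUSG00000026678, chromosome 1, 169655501 to 169695813) encodes a regulator of G protein signaling that marks pericytes. It had 16, 7 and 18 read pairs in WT NS, 14, 27 and 23 in WT St, 26, 16 and 37 in TNFR2-/- NS and 23, 26 and 22 in TNFR2-/- St cultures. All groups overlapped. *Vtn* (ENSMUSG00000017344, chromosome 11, 78499091 to 78502324), the gene of the adhesive glycoprotein vitronectin, had 0, 1 and 10 read pairs in WT NS, 6, 3 and 13 in WT St, 1, 3 and 3 in TNFR2-/- NS and 1 in each TNFR2-/- St culture. Its genotypes were apart in St libraries, at 3 to 13 against 1 read pair. WT culture 4 had the most *Vtn* and the most *Dcn* in both conditions.

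Decorin, *Dcn* (ENSMUSG00000019929, chromosome 10, 97479609 to 97518143), binds collagen fibrils and was the least abundant member. It had 3, 1 and 9 read pairs in WT NS, 0, 3 and 10 in WT St, 0, 6 and 4 in TNFR2-/- NS and 0, 1 and 0 in TNFR2-/- St cultures. With a mean under 0.1 FPKM it was left out of the fits, which held the other 9 members, and 7 of these had a mean of at least 1 FPKM.

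*Lum* (ENSMUSG00000036446, chromosome 10, 97565128 to 97572703) encodes lumican, another collagen-binding proteoglycan, and lies 47.0 kb from *Dcn*. It rose with cytokines in every culture. Read pairs were 5, 1 and 0 in WT NS and 24, 17 and 24 in WT St cultures, and 0, 0 and 4 in TNFR2-/- NS and 22, 16 and 24 in TNFR2-/- St cultures. NS and St libraries did not overlap in either genotype, and genotypes overlapped in both conditions. Summed over cultures the St level was 10.4 times the NS level in WT (65 against 6 read pairs, exact 95% interval of counting error 4.54 to 29.5) and 15.8 times in the libraries labelled TNFR2-/- (62 against 4, 5.87 to 59.8). In the limma fit over all genes, the log2 fold change of FPKM + 0.5 was 1.97 ± 0.29 (SE, n = 3, adjusted p = 0.000924) in WT and 2.08 ± 0.29 (adjusted p = 0.000483) with the TNFR2-/- label. The difference between these changes was 0.11 ± 0.41 (adjusted p = 0.981), from −0.17 to 0.63 over the alternatives. *Lum* averaged 0.383 RPM, and a required mean of 2 RPM, the level the study set for its pathway analysis, leaves it uncalled.

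**Figure D4:**
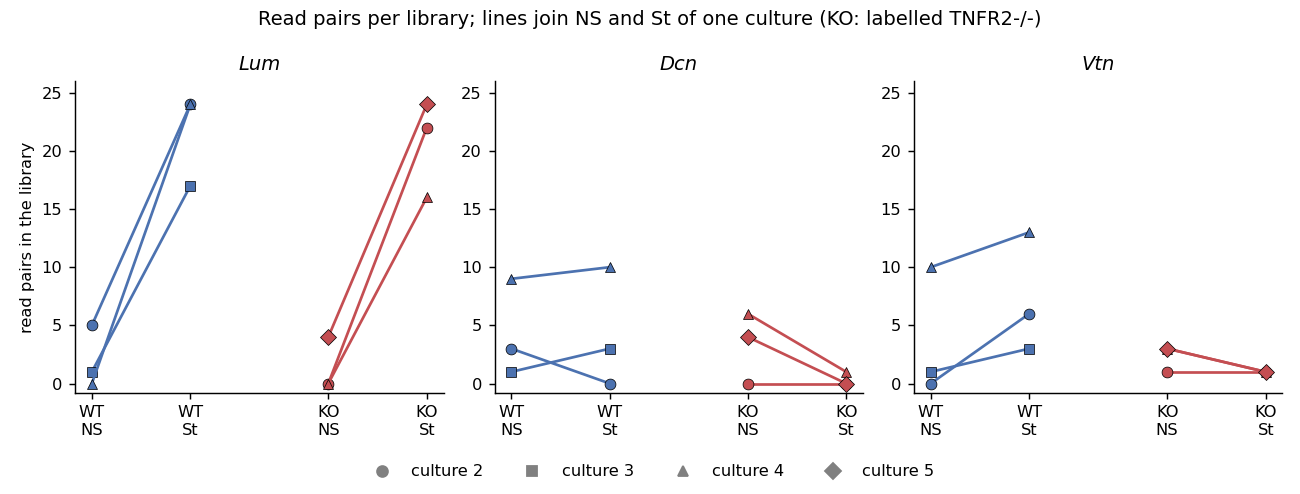
Read pairs per library for Lum, Dcn and Vtn (vertical axis), with lines joining the NS and St libraries of each culture (KO: labelled TNFR2-/-). Lum went from 0 to 5 read pairs in NS to 16 to 24 in St cultures, while Dcn and Vtn stayed at 13 or fewer.

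*Lum* was the 1 member of 9 tested that was called in either stimulation comparison, at adjusted p of at most 0.05, a fold change of at least 1.5 and a mean of at least 1 FPKM. Its mean over all libraries was 1.15 FPKM, from 2.16 in WT St and 2.10 in TNFR2-/- St against 0.204 and 0.132 in the NS groups. The required mean was thus met only through the groups where *Lum* was high. Of all 18081 genes tested, 4.58% were called higher in WT St and 5.41% higher in TNFR2-/- St. Among 12 other small leucine-rich proteoglycan genes *Podn* (podocan) was called in both, at 39 to 56 read pairs in WT NS against 86 to 98 in WT St cultures. *Kera*, the next gene on chromosome 10, had at most 1 read pair in any library.

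NS and St libraries overlapped for each contractile gene in both genotypes, while each culture could be compared with itself. In WT, St over NS ratios of RPM were 1.18, 1.29 and 0.911 for *Acta2* and 1.03, 1.15 and 0.846 for *Myl9* in cultures 2, 3 and 4. In the libraries labelled TNFR2-/- they were 0.867, 0.813 and 0.70 for *Acta2* and 0.776, 0.697 and 0.527 for *Myl9* in cultures 2, 4 and 5. All 12 ratios of the 4 genes were under 1 with the TNFR2-/- label, as were 6 of 12 in WT. Each 12 come from 3 cultures and from genes correlated at 0.92 to 0.99, so they are not 12 independent observations. The median log2 fold change of all genes was −0.11 with the TNFR2-/- label and −0.055 in WT. Without pairing, the lowest limma adjusted p of these genes in either genotype was 0.499, for *Myl9* with the TNFR2-/- label.

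With a block for the culture, the log2 fold changes in the libraries labelled TNFR2-/- were −0.58 ± 0.12 for *Myl9* (SE, limma adjusted p = 0.00726), −0.56 ± 0.13 for *Cnn1* (0.0125), −0.47 ± 0.10 for *Tagln* (0.00997) and −0.34 ± 0.10 for *Acta2* (0.0328). All were smaller than the 1.5-fold change required of a call. By the same adjusted p alone, 31.7% of all genes tested were lower, so that many other genes did the same. In WT the lowest blocked adjusted p of these genes was 0.295 for *Acta2*, where 31.6% of all genes passed in either direction. Without WT culture 4 the WT change of *Acta2* was 0.30 ± 0.08 (adjusted p = 0.0494), against 0.16 with all cultures. The difference between genotypes had blocked adjusted p of 0.123 to 0.309, so a difference in response between genotypes was not shown. Left out in turn, TNFR2-/- culture 5 gave *Tagln* 0.0563 and *Acta2* 0.159, and TNFR2-/- cultures 2 and 4 and WT culture 2 gave *Acta2* 0.0529, 0.0882 and 0.0509. The highest values with any culture left out were 0.0299 for *Myl9* and 0.0348 for *Cnn1*.

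**Figure D5:**
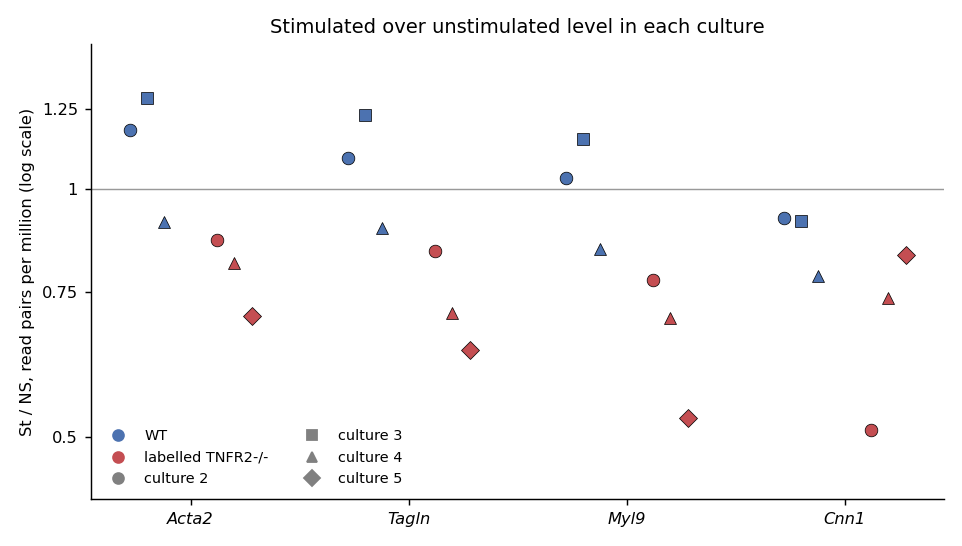
St level divided by NS level of the same culture, in RPM on a log axis, for the 4 contractile genes, with colors for the genotype label and shapes for the culture number. All 12 ratios of the libraries labelled TNFR2-/- lie under 1, from 0.51 to 0.867, and those of WT from 0.784 to 1.29. The 12 ratios of each genotype come from 3 cultures and are not independent.

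Of the mural and fibroblast lists, 69 of 79 genes were tested and 6 were called in each stimulation comparison, 5 higher and 1 lower, where 7.53% of all genes were called in WT and 10.1% with the TNFR2-/- label. Their median log2 fold changes were 0.0026 and −0.093, against −0.055 and −0.11 for all genes. The 3 lists differed, so the pooled medians describe none of them. Medians in WT and with the TNFR2-/- label were 0.152 and 0.520 for pericyte genes, and −0.141 and −0.330 for smooth muscle genes. For fibroblast genes they were 0.104 and −0.128. Of 19 pericyte genes tested, 4 were called in WT and 5 with the TNFR2-/- label. The sphingosine 1-phosphate receptor gene *S1pr3* rose by 2.76 ± 0.30 (SE, limma adjusted p = 0.000108) in WT and 2.85 ± 0.30 (6.39e-05) with the TNFR2-/- label, from 319 to 1311 read pairs in NS to 2784 to 8871 in St cultures. *Gja4*, a connexin gene, went from 0 to 5 to 47 to 105 read pairs, and *Rgs4* and *Ebf1* were also called higher in both. *Pdgfrb*, the PDGF receptor gene that marks mural cells, was called lower with the TNFR2-/- label (−1.57 ± 0.37, adjusted p = 0.0101), from 42 to 54 to 12 to 18 read pairs. In WT it had 75, 42 and 108 read pairs in NS and 45, 16 and 41 in St cultures (−1.17 ± 0.37, adjusted p = 0.0549), a change that was called with the culture block (adjusted p = 0.00132), and the difference between genotypes was −0.40 ± 0.52 (adjusted p = 0.920). *Itga8* was called lower and *Cnn3* higher in WT, and *Cnn3* also with the TNFR2-/- label. Of the 29 genes tested in the fibroblast list limma without a block and voom called 0 in either, with 2 in WT and 5 with the TNFR2-/- label at an unadjusted p under 0.05. In the SRF list, *Srf* and its coactivator gene *Mkl2* were called lower in WT (−0.60 ± 0.15, adjusted p = 0.0192 for *Srf*), and *Mkl2* with the TNFR2-/- label. With the culture block the counts were 10 in WT and 14 with the TNFR2-/- label (8.79% and 11.3% of all genes), the additions being lower, such as *Lmod1*, *Synpo2* and the fibroblast gene *Foxc1* in both, *Pdgfrb* in WT, and the fibroblast genes *Col1a2* and *Fbln2* with the TNFR2-/- label.

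Between genotypes the contractile genes overlapped in NS and in St libraries. Group means in the libraries labelled TNFR2-/- were the lower ones for each, as for *Acta2* with 216 ± 160 FPKM (SD, n = 3) against 374 ± 228 in NS and 180 ± 145 against 392 ± 170 in St libraries. In NS libraries the difference was no larger than these SDs. Of the 10 members, *Aoc3* and *Apoa1* were apart between genotypes in NS libraries, and *Aoc3*, *Apoa1* and *Vtn* in St libraries, whereas 34.2% and 32.7% of all genes tested were apart. The 69 list genes tested had a median log2 fold change of −0.18 in NS and −0.22 in St libraries, against 0.038 and −0.0034 for all genes. By list, in NS and St, medians were −0.22 and −0.39 for fibroblast genes and −0.049 and −0.16 for smooth muscle genes. Pericyte genes had −0.065 and −0.015. Of the 69 genes 2 were called in NS (2.90% of all genes) and 1 in St libraries (1.80%). *Ramp1*, a receptor activity-modifying protein gene, was higher with the TNFR2-/- label in both (1.02 ± 0.15, SE, limma adjusted p = 0.0094 in NS) and *Itga8*, an integrin chain gene, lower in NS (−0.87 ± 0.16, 0.0173). The count was 0 in NS without WT NS culture 3 and 0 in St without WT St culture 3, while voom called 4 in St, 2 higher and 2 lower.

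*Aoc3* (ENSMUSG00000019326, chromosome 11, 101330605 to 101341938) encodes vascular adhesion protein 1, an amine oxidase on the surface of vascular smooth muscle and endothelium. It had 40, 67 and 48 read pairs in WT NS and 35, 49 and 45 in WT St cultures, against 0, 19 and 7 in TNFR2-/- NS and 8, 21 and 5 in TNFR2-/- St cultures. The log2 difference of FPKM + 0.5 between genotypes was −3.05 ± 0.76 (SE) in NS and −1.96 ± 0.76 in St libraries, and −2.03 in NS without the TNFR2-/- library at 0. By description only, *Aoc3* and *Apoa1* were past the criteria of a lower call in NS and *Apoa1* alone in St, where 1.28% and 0.614% of genes were called lower. The rule used these contrasts, so nothing is read from the counts. *Aoc3* no longer met them without WT NS culture 2, 3 or 4, TNFR2-/- NS culture 2 or 5, or WT St culture 4.

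*Aoc2*, the neighboring amine oxidase gene 902 bases from *Aoc3*, went the same way, with 417, 466 and 483 read pairs in WT NS, 155, 287 and 174 in TNFR2-/- NS, 358, 478 and 452 in WT St and 179, 269 and 238 in TNFR2-/- St cultures. Its log2 fold change between genotypes was −1.26 ± 0.23 (SE, limma adjusted p = 0.0160) in NS and −0.89 ± 0.23 (0.0485) in St libraries. Of the 100-base sequences in *Aoc3* transcripts 0.67% also occurred in transcripts of *Aoc2* or *Gm11618*, so part of the read pairs of the pair may have been assigned to either. *Loxl4*, a lysyl oxidase gene, was called higher after stimulation in both genotypes (0.94 ± 0.17, adjusted p = 0.00374 in WT and 1.15 ± 0.17, 0.000729 with the TNFR2-/- label). Another amine oxidase, *Maoa*, had 1870 to 2713 read pairs and was called in no comparison.

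*Apoa1* (ENSMUSG00000032083, chromosome 9, 46228580 to 46230466) encodes the main protein of high-density lipoprotein and lies 292.5 kb from *Tagln*. It had 17, 36 and 35 read pairs in WT NS and 23, 50 and 26 in WT St cultures, against 6, 10 and 5 in TNFR2-/- NS and 4, 7 and 4 in TNFR2-/- St cultures. Log2 differences were −1.88 ± 0.37 (SE) in NS and −2.33 ± 0.37 in St libraries. Its neighbors in the apolipoprotein cluster, *Apoc3*, *Apoa4* and *Apoa5*, had at most 1 read pair in any library. *Apoe* had 9425 to 13285 read pairs in WT and 14091 to 40312 in the libraries labelled TNFR2-/-, with the most in culture 5.

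NS and St libraries of *Aoc3* and of *Apoa1* overlapped in both genotypes. *Aoc3* had adjusted p of 0.869 in WT and 0.494 with the TNFR2-/- label, and *Apoa1* 0.915 and 0.539 (limma). No member was called in the interaction of genotype and stimulation, where 0.00553% of all genes were, and the adjusted p of the 9 members tested were 0.791 to 0.981. Limma and voom called 0 of them, and 0 had an unadjusted p under 0.05.

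Vitronectin binds integrins that hold the αv chain, and the gene of that chain, *Itgav*, was far more abundant than *Vtn*. *Itgav* had 12558 to 16111 read pairs in NS and 18469 to 24274 in St cultures, and was called higher with the TNFR2-/- label, as were *Itgb3*, the β3 chain, and *Plaur*, the urokinase receptor gene. In WT cultures 2, 3 and 4 *Itgav* also rose, from 16111, 12558 and 13614 to 21760, 19418 and 18469 read pairs. Of 7 vitronectin receptor genes tested, 4 were called higher with the TNFR2-/- label (5.41% of all genes) and 1 in WT (4.58%). In the interaction of genotype and stimulation 0 were called. Among 9 other R4 family RGS genes, relatives of *Rgs5*, *Rgs16* and *Rgs4* were called higher and *Rgs3* lower in both genotypes. *Rgs16* had 451 to 2783 read pairs in NS and 5798 to 13753 in St cultures.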

How the data were processed

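FPKM per gene symbol in 12 libraries were deposited by the authors after trimming with Trim Galore, alignment and counting of read pairs by STAR (GRCm38, Ensembl annotation) and conversion by edgeR. The methods name a BGISeq-500 platform and the labels Illumina protocols. Of 45792 entries per table, 229 sharing a symbol were left out. No column of values lacked a sample. Whole read pairs were recovered from the FPKM for 99.992% of 26636 genes above 0 in at least 2 libraries (tolerance 3e-05 reads plus 2e-08 per read).

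Values were fitted as log2(FPKM + 0.5) with limma 3.58.1 (R 4.3.3), as 4 group means with a mean-dependent prior, over the 18081 genes averaging 0.1 FPKM or more, with Benjamini-Hochberg adjustment over all of them, and the procedure was tested on simulated data. Members and 17 gene lists were chosen with earlier results of these data known. All members were named, with the called list genes of largest change (up to 3 per direction), the 5 genes most like each role's mean profile, and *Tnfrsf1b* and 4 OPC genes. A few named items are not reported here. Other list genes named were chosen after their values were seen (*Tgfb1i1*, *Col1a1*, *Col1a2*, *Col6a2*, *Gfap*, *Aqp4*, the scarce and the abundant markers, and neighbors or relatives of members). NS and St libraries with 1 number within a genotype correlated at 0.34 to 0.65 (6 pairs, 13554 genes, group means removed) and those with other numbers at −0.45 to 0.09, so numbers mark a culture. Across genotypes same-numbered libraries correlated at −0.08 to 0.20 and were not paired. Alternatives were other pseudocounts, filters, scaling, the 2 groups alone, no trend, blocks, voom on recovered reads, a threshold in reads and left-out libraries. Gene positions are from GENCODE M21. Python 3.11.15 was used for the rest.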

Additional observations from a re-analysis of the deposited data

How the results depend on the processing

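*Lum* kept its direction and an adjusted p under 0.05 under all 29 alternatives to each stimulation comparison (log2 fold change 1.41 to 3.72 in WT and 1.46 to 4.35 with the TNFR2-/- label). Members called fell from 1 to 0 in each with a mean of 2 RPM required, a threshold chosen after seeing the data, and rose to 2 or 3 with the culture block and a TNFR2-/- culture left out (*Myl9* without culture 2, *Cnn1* without culture 5, both without culture 4, all lower, range 1 to 3). Of 1157 values of single members under alternatives, 1143 kept their side or moved by less than the spread, and none reversed a call.

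Genes called between genotypes depended most on the settings. For NS (524) they were 268 without a filter, 7 with only the 2 groups (all higher), and 49 to 953 with a library left out (49 without WT NS culture 3, 953 without TNFR2-/- NS culture 4). For St (325) they were 166, 47 and 39 to 462 (39 without WT St culture 4, 462 without TNFR2-/- St culture 4). Mural and fibroblast list genes called were 2 in NS, 1 higher and 1 lower, and 1 in St, higher. In NS they were 0 with the 2 groups, 8 (7 lower) with the number as a block across genotypes, and 0 to 3 with a library left out. In St they were 4 (3 lower) with a filter at 1 FPKM, 4 (2 lower) with voom, 14 (13 lower) with that block, and 0 to 6 with a library left out. For stimulation (6 in each) they were 10 in WT with the culture as replicate block (7 to 10 with a culture left out) and 14 with the TNFR2-/- label (9 to 15, among them 12 without TNFR2-/- culture 2 and 13 without WT culture 3 or 4), also 14 with the number block. The interaction had 1 gene called, 0 with voom, 1 to 2 with a library left out and 0 to 1 with the culture block and a culture left out. The causes were not tested. Depth limits *Vtn*, *Dcn*, *Lum* and *Rgs5*, with at most 37 read pairs per library, where a few read pairs set each value. With all cultures, the block changed no call of a member.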

Other observations

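Genes of other cell types and of early responses were called beside the mural and fibroblast genes (limma without a block, log2 fold changes of FPKM + 0.5). Of astrocyte genes, *Agt* (angiotensinogen), *Gja1* (a connexin) and *Fgfr3* (0.90 ± 0.18, SE, adjusted p = 0.0193) were called higher in TNFR2-/- NS than WT NS libraries, and *Agt*, *Slc1a2* and *Slc1a3*, the glutamate transporter genes, in TNFR2-/- St than WT St libraries. *Fgfr3* was called lower after stimulation in both genotypes. Of OPC genes, *Olig2* was called lower after stimulation in both genotypes (−1.23 ± 0.10, adjusted p = 7.72e-06 in WT), *Cspg4* lower and *Sox10* higher in WT, and *Pdgfra* and *Lhfpl3* lower in TNFR2-/- St than WT St libraries. Of 16 immediate early genes, 7 were called lower in TNFR2-/- NS than WT NS libraries, led by *Fosb*, *Egr2* and *Nr4a2*, where 1.28% of all genes were. With only these 2 groups fitted, 0 of all genes tested were called lower. After stimulation *Atf3*, *Junb* and *Egr2* led those called higher in both genotypes, *Nr4a1* and *Arc* were called lower in both and *Ier2* in WT. Of endothelial genes, *Ly6c1*, *Ly6a* and *Erg* were called higher after stimulation in both genotypes and *Mfsd2a* lower with the TNFR2-/- label, and *Esam* was called lower in TNFR2-/- St than WT St libraries. Of neuron genes, *Tubb3* was called higher (3.06 ± 0.18, adjusted p = 9.65e-07 in WT) and *Snap25* lower after stimulation in both genotypes. *Cd68* of the microglia list was called higher and *Foxj1* of the ependymal list lower after stimulation with the TNFR2-/- label.

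By the mean profile over 12 libraries, the genes most like *Apoa1* were *Ythdf1* (r = 0.991), *Rdh11* (0.986), *Sc5d* (0.982), *Asun* (0.981) and *RP23-369O21.1* (0.980), among 13547 candidates. *Sc5d* encodes sterol C5-desaturase of cholesterol synthesis and had 4047 to 8047 read pairs. For *Aoc3*, *Rgs5* and *Vtn* together they were *RP23-23C4.6* (0.961), *5930422O12Rik* (0.936), *Pias1* (0.936), *A3galt2* (0.931) and *Casc1* (0.924), and for *Dcn* and *Lum* *Itga9* (0.963), *Rnf114* (0.963), *Gm10425* (0.955), *9330175E14Rik* (0.953) and *Vps37c* (0.951). For all 10 members *Paip2* (0.948), *Hprt* (0.940) and *Pfdn4* (0.937) led. These values describe 12 libraries that share cultures and groups. *Dcn* and *Lum* correlated with each other at −0.26, and *Aoc3* and *Rgs5* at −0.55. *Dcn*, *Rgs5* and *Vtn* averaged 0.0706, 0.125 and 0.134 FPKM, little beside the added constant of 0.5. Likeness to a profile of several members therefore does not show likeness to each of them. *Acta2*, *Tagln*, *Myl9* and *Cnn1* made up 0.0153% of all read pairs in TNFR2-/- St culture 5 and 0.149% in WT NS culture 4. The ratio of *Tagln* to *Acta2* read pairs was 0.488 to 0.680 in 10 libraries and 0.976 and 0.888 in TNFR2-/- culture 5.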
